A study of Drosophila melanogaster with 3 samples.

Results

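A chromatin immunoprecipitation (ChIP-seq) experiment gave 2637 sites where Nerfin-1 had a strong summit in replicate 2 and none close by in the other replicates. The sites were chosen from the measured values themselves. The 7056 peaks of highest deposited signal were taken from each of 3 replicates, and a replicate 2 summit, the base of highest enrichment in a peak, was kept when no summit of the 7056 of replicate 1 and none of the 7056 of replicate 3 lay within 100 bp. The members are 2637 of the 7056 strongest summits of replicate 2, and of 21168 strongest summits in all. Membership does not mean weak binding in the other replicates. The peak intervals of 655 members overlapped a strong interval of replicate 1 or 3. Of the other replicate 2 summits, 3251 were matched in both other replicates and are called shared summits here, and 1168 were matched in one. The same rule left 1232 summits strong in replicate 1 only and 1480 strong in replicate 3 only.

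The material was whole Drosophila melanogaster embryos of mixed sex, 4 to 16 h old by the sample source label (a separate age label gives a number of hours that no embryo reaches). All replicates carried a stable transgene for nerfin-1 with GFP fused to the C terminus of its protein, and an antibody against GFP precipitated sonicated chromatin of 200 to 800 bp. The 3 biological replicates form 1 group, with no other genotype, treatment or time. Every comparison below is therefore between sets of summits, and intervals and p values are over summits and not over replicates. The lists give no read counts, so the depth of each replicate is unknown.

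Nerfin-1 binds DNA through zinc fingers, is related to vertebrate INSM1, and is known for keeping young neurons from returning to a stem cell state. In the larval brain it has been linked to Scalloped, the fly TEAD factor of the Hippo pathway. Neurons are only some of the cells of a whole embryo, so a peak does not say in which cells the protein was bound, and fewer bound cells and less binding per cell cannot be told apart.

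The summits of the members lay in DNA poor in G and C. The sequences of 10 members are printed to show this, together with those of 2 shared summits, each as the 200 bp around the summit, read from RefSeq release 6. On arms 2L, 3L and 3R and on X, the members shown are the 4 strongest at promoters, the 4 strongest elsewhere and the next 2 that lie far from any strong summit of the other replicates, among those with no annotated exon in the window. Capitals mark unbroken stretches of 8 or more bases without G or C.
Fhos, member, promoter, chr3L:8765982-8766181, dm6, plus strand: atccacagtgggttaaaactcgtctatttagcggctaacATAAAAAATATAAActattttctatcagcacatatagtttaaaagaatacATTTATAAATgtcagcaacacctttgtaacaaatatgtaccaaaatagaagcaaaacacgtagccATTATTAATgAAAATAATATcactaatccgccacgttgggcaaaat
CG10376, member, promoter, chr2L:18703142-18703341, dm6, plus strand: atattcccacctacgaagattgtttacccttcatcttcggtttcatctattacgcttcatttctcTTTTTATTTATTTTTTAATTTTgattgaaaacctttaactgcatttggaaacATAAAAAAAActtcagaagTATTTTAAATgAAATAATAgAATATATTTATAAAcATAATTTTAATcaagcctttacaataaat
DnaJ-H, member, promoter, chr2L:13165170-13165369, dm6, plus strand: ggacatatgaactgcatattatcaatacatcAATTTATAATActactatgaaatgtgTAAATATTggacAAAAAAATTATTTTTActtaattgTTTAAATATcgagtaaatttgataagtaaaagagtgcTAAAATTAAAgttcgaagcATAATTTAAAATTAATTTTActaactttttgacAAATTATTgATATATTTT
CG32196, member, promoter, chr3L:18461109-18461308, dm6, plus strand: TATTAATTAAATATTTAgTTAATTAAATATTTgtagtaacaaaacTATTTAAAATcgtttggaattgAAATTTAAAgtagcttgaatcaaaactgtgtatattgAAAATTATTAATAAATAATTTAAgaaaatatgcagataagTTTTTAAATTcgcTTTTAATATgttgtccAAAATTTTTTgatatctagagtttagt
mat, member, intergenic, chr3L:905136-905335, dm6, plus strand: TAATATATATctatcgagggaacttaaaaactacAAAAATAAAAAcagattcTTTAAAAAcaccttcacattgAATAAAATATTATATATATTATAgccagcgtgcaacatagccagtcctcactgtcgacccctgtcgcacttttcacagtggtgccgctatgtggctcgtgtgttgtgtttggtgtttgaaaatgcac
tal-1A, member, intergenic, chr3R:13800576-13800775, dm6, plus strand: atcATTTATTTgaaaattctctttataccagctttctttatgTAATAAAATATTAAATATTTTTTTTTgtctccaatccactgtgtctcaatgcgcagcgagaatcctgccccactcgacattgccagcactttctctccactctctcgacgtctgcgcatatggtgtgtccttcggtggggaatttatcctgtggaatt
Tlk, member, intron, chrX:3744243-3744442, dm6, plus strand: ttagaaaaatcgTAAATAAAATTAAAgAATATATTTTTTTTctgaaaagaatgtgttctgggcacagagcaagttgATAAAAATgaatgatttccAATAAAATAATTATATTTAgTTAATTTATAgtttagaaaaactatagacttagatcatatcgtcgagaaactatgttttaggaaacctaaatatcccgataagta
tara, member, intergenic, chr3R:16222079-16222278, dm6, plus strand: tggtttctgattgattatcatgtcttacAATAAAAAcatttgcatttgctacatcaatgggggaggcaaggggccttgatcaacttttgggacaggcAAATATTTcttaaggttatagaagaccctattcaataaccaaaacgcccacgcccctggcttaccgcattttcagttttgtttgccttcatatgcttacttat
Ino80, member, promoter, far from other strong summits, chr3R:19403160-19403359, dm6, plus strand: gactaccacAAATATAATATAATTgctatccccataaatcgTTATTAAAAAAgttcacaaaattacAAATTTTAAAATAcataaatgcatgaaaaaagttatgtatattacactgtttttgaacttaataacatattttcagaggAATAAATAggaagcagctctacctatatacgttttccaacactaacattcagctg
CG32115, member, promoter, far from other strong summits, chr3L:12913693-12913892, dm6, plus strand: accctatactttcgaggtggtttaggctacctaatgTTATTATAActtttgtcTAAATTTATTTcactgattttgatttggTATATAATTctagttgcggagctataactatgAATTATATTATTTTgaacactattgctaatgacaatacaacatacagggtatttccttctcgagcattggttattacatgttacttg
Art3, matched in both other replicates, promoter, chr3R:15229433-15229632, dm6, plus strand: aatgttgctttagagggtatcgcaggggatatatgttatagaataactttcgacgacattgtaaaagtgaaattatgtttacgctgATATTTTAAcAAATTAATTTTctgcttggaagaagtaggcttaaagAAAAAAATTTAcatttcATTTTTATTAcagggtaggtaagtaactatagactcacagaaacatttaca
cbt, matched in both other replicates, intron, chr2L:480981-481180, dm6, plus strand: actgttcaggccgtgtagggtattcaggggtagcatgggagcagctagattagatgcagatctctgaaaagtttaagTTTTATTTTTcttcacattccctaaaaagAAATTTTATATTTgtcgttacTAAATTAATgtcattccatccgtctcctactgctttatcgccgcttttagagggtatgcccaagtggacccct

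The Fhos summit (a formin, which builds actin filaments) ranked 268 in replicate 2 and had no summit within 100 bp in the whole lists of replicates 1 and 3. A strong summit of each of these replicates lay 169 bp away. The DnaJ-H summit had rank 498 in replicate 2, against 10824 in replicate 1 and 18079 in replicate 3. Strong summits of replicates 1 and 3 lay 357 and 473 bp from it. The window of CG32196, which ranked 584 and was in neither other list, held 18.0% G+C, and 102 of its 200 bases are in capitals. The Tlk window (the Tousled-like kinase of chromatin assembly) held 24% G+C. The low G+C content was not found in every member. The windows of mat and tara held 37.0% and 39.5%, that of tal-1A held more than that of tara, and all 3 lie nearer to the 40.5% of the shared cbt window than to the lowest members. The tara window has 16 bases in capitals. The shared summit of Art3 (an arginine methyltransferase) ranked 4, 63 and 78 in replicates 2, 1 and 3, and its window held 29.5% G+C. The shared summit of cbt (the zinc-finger gene cabut) ranked 8, 64 and 45 in the same order, with 40.5% G+C, and it has the Scalloped word described below within 50 bp of its summit.

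Across all members the G+C content was 33.7% ± 7.04 (SD, n = 2637 summits), against 38.7% ± 8.92 at shared summits (n = 3251), 44.9% ± 6.99 at summits strong in replicate 1 only (n = 1232) and 45.9% ± 7.28 at summits strong in replicate 3 only (n = 1480). The members thus lay lowest and the counterparts of the other replicates highest, with shared summits between them. Windows under 30% G+C made up 30.4% of members (Wilson 95% interval 28.7 to 32.2), 17.3% of shared summits (16.1 to 18.7), 2.68% of replicate 1 only summits (1.91 to 3.74) and 2.09% of replicate 3 only summits (1.48 to 2.96). The low G+C was local. In 50-bp windows it was 32.3% at the summit of members and 44.4% at 500 bp to the left, and the mean of windows 1 kb away was between 42.3% and 43.6% for each of the 4 sets. A stretch of 15 or more bases without G or C was present in 34.4% of members (32.6 to 36.3), 24.3% of shared summits (22.9 to 25.8), 9.50% of replicate 1 only summits and 9.32% of replicate 3 only summits.

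**Figure D1:**
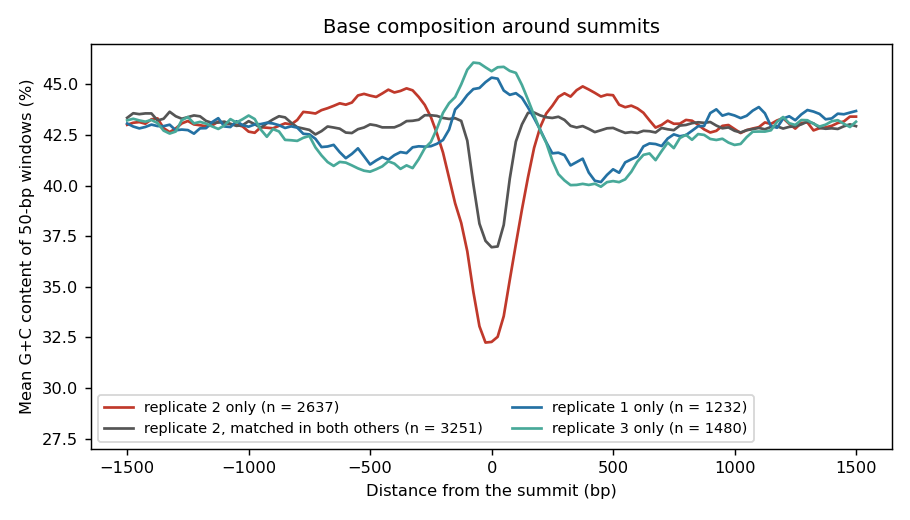
Mean G+C content of 50-bp windows (vertical axis, %) against distance from the summit (horizontal axis, bp) for 4 sets of summits. The members dip to 32.3% at the summit, shared summits dip less, the 2 sets strong in replicate 1 only or replicate 3 only rise, and all 4 lines meet near 43% over 1000 bp away.

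The weaker strong summits, those ranked past 3528, showed the same order as the whole. There the G+C content was 34.4% ± 7.10 in 1993 members and 43.9% ± 7.50 in 915 shared summits. At ranks up to 3528 it was 31.7% ± 6.44 in 644 members and 36.6% ± 8.59 in 2336 shared summits. Within replicate 2, the G+C content of the strongest 706 summits was 30.4% ± 7.30 in members and 34.8% ± 8.57 in shared summits, and in the weakest 705 it was 35.5% ± 7.41 in members and 46.8% ± 6.27 in shared summits. Read by base composition, 49.9% of replicate 2 summits under 25% G+C were members (45.2 to 54.6, 215 of 431), against 11.2% of those at 50% G+C or more (8.83 to 14.1, 61 of 544). In replicates 1 and 3 the share strong in that replicate only ran the other way, at 2.82% and 2.56% under 25% G+C, and at 21.4% and 28.8% from 50% G+C.

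**Figure D2:**
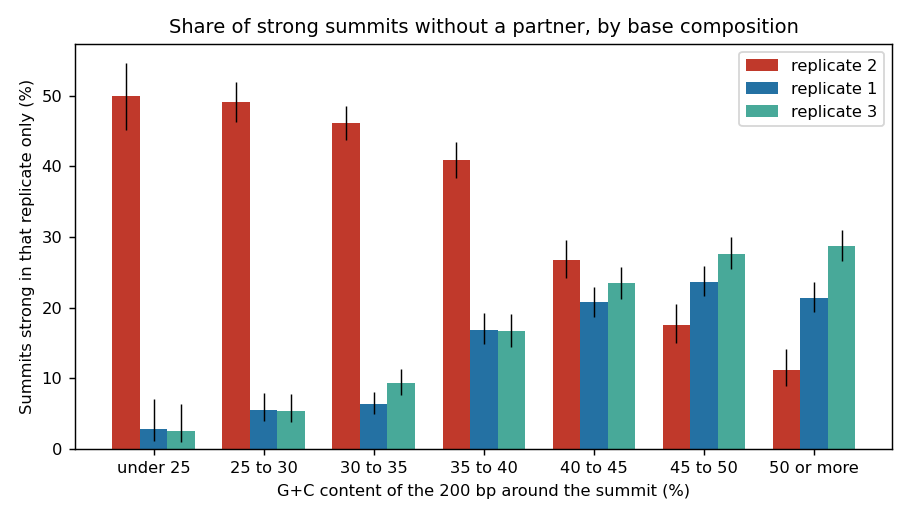
Share of the 7056 strongest summits of each replicate that were strong in that replicate only (vertical axis, %) by the G+C content of the 200 bp around the summit (horizontal axis, %), with Wilson 95% intervals. The share falls to the right in replicate 2, to 11.2%, and the lowest shares of replicates 1 and 3, 2.82% and 2.56%, are in the bin furthest left.

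The members came mostly from the lower ranks of replicate 2, as the rule favours. Their ranks ran from 158 to 7054 with a median of 4875, against a median of 2071 for shared summits. Of the strongest 706 replicate 2 summits 3.68% were members (26), and of the weakest 705 it was 65.5% (462). Of the strongest 706 of replicate 1 and of replicate 3, 0.567% each were strong in that replicate only. At the rank limit, the last 4 members were nearest to sob, CG14641, CG12147 and CG3690, with signals of 90.7 each, and the first 4 unmatched summits outside were nearest to CG15025, CG33969, Eip75B and spir, with signals of 90.6 each. At the distance limit, members nearest to CG10376, PIG-K, Sr-CI and T48 lay 1 bp past 100 bp from a strong summit of replicate 1 or 3, and summits nearest to Diap1, brat, CG10357 and conv lay at 100 bp from one and were left out. Within 10 bp of the limit there were 53 members on one side and 70 matched summits on the other.

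Many of the strongest members lay beside a strong summit of the other replicates. Whether replicate 2 also had a summit at the position of that neighbour was not tested. The strongest of all was at the promoter of CG34231, at position 11985744 of arm 2R, with rank 158 in replicate 2 and strong summits of replicates 1 and 3 at 170 and 174 bp. Next was a summit at 15747099 of arm 2L, 489 bp upstream of a start site of CycE, which encodes the cyclin that starts DNA replication. It ranked 213 in replicate 2, held 19.0% G+C, and lay 154 and 155 bp from strong summits of replicates 1 and 3. The summits of Fer2LCH (the ferritin light chain, rank 223) and CG15141 (rank 232) had such neighbours at 359 to 400 bp and at 110 to 128 bp. Those of chn (a zinc-finger gene of the nervous system, rank 247), tal-1A (a small-peptide gene, rank 272) and shn (a zinc-finger gene of BMP signalling, rank 368) had them at 125 to 295 bp. In the 20 strongest members, 17 had a strong summit of both other replicates within 500 bp, and the exceptions were CG12974, CG32196 and Ino80.

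Over all members, 750 lay over 100 and up to 500 bp from a strong summit of replicate 1 or 3, and 1887 lay further away, called isolated here. Of the isolated members 883 were over 5000 bp from any. The peak intervals of 655 members (24.8%) overlapped a strong interval of replicate 1 or 3. Of members within 500 bp of a strong replicate 1 summit, 472 of 620 had less G+C than that neighbour, with 35.6% ± 7.74 in members and 43.5% ± 7.97 in the neighbours, a difference of -7.84 percentage points ± 10.7 (SD over 620 pairs). Against replicate 3 neighbours, 476 of 613 had less, at -8.17 points ± 10.8. The same pairing of replicate 1 only summits with replicate 3 neighbours gave a difference of 1.03 points ± 8.66 (479 pairs). The isolated members had 33.1% ± 6.52 G+C and the near ones 35.4% ± 7.96, so low G+C was not limited to members near a strong summit of the other replicates.

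**Figure D3:**
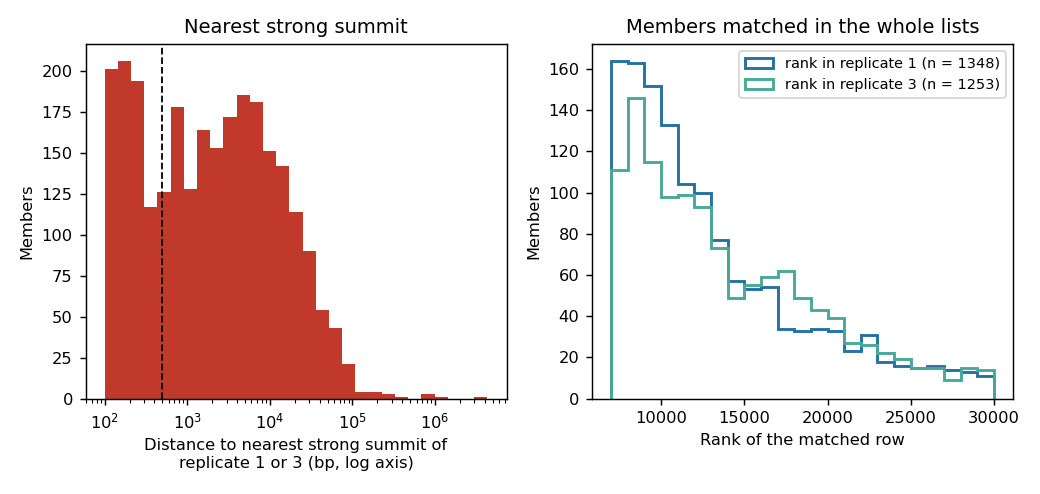
Left, members (vertical axis, count) by distance to the nearest strong summit of replicate 1 or 3 (horizontal axis, bp, log scale), with a dashed line at 500 bp that leaves 750 members to its left. Right, members (vertical axis, count) by the rank of the matched row in the whole list of replicate 1 (1348 members) or replicate 3 (1253 members), where no rank can be under 7057.

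About 1 member in 2 recurred at lower strength in each of the other replicates. In the whole list of replicate 1, of 30000 rows, 51.1% of members had a summit within 100 bp, at a median rank of 11564.5. In that of replicate 3 the share was 47.5%, at a median rank of 12520. Among all 7056 strongest summits of replicate 2 the shares were 79.5% and 76.5%, members included; the rule used these distances, so nothing is read from the gap. Both whole lists held 921 members, one of them 759, and neither 957. The G+C content of these groups was 33.6% ± 6.75, 33.8% ± 6.79 and 33.8% ± 7.49 in that order. The share of promoters was 36.9% in the first of these groups and 58.8% in the last. The list thresholded by reproducibility (IDR) held 36.1% of members and 73.8% of all strongest summits of replicate 2, and the list of pooled replicates held 76.5% of members. Replicate 2 is itself part of both lists. Of the 957 members in neither other list, 437 were in the pooled list and 164 in the IDR list.

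Some members had no listed summit near them in the other replicates. Each list holds 30000 rows, and a site outside it may still have been enriched. No summit lay within 500 bp in either whole list for 297 members, 11.3% (10.1 to 12.5), against 18 of the 1232 summits strong in replicate 1 only (1.46%, 0.926 to 2.30) and 24 of the 1480 strong in replicate 3 only (1.62%, 1.09 to 2.40). These counts use the same lists as the rule and are a description. Of the 297, 91 ranked within the first 3528 of replicate 2, and 223 also had no pooled summit within 500 bp. Their G+C content was 33.5% ± 6.92 and 138 (46.5%) lay at promoters. The strongest was the CG32196 summit, which the pooled list did hold, at rank 900. The CG32115 summit at 12913793 of arm 3L ranked 641 in replicate 2, while the nearest listed summit was 46776 bp away in replicate 1, 46772 bp in replicate 3 and 70516 bp in the pooled list. The summit beside Cpr76Ba (a cuticle protein gene) ranked 735, with 40078, 40488 and 40509 bp to the nearest summits of those lists, and that of Mal-A5 (a maltase gene) ranked 751, with 119909, 119650 and 119679 bp. Those of sls (the titin-like protein of muscle) and sr (an EGR-type factor of tendon cells) ranked 815 and 977. The summit of Sptz ranked 764 in replicate 2 and 1138 in the pooled and IDR lists, although the nearest summits of replicates 1 and 3 were 9573 and 9580 bp away. The intervals of the 297 were narrower than the usual 436 bp in 91 cases, against 547 of all 2637 members (20.7%).

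By annotation the members resembled shared summits, with somewhat more of them in intergenic sequence. Promoters, within 500 bp of a transcription start site, held 49.3% of members and 51.5% of shared summits, a difference of -2.23 points (Newcombe 95% interval -4.80 to 0.337). Introns held 32.4% and 33.1%, other exons 1.93% and 2.43%, and coding exons 3 members and 11 shared summits. Intergenic sequence held 16.3% of members and 12.6% of shared summits, a difference of 3.66 points (1.86 to 5.49). It held 15.9% and 16.5% of the summits strong in replicate 1 only and in replicate 3 only, so each set without a partner had a higher intergenic share than shared summits. Near members lay at promoters in 64.9% of cases (61.5 to 68.3) and isolated ones in 43.0% (40.8 to 45.3). Arm X held 18.3% of members (16.9 to 19.8), 16.4% of shared summits (15.2 to 17.7), 13.1% of replicate 1 only (11.3 to 15.1) and 13.9% of replicate 3 only summits (12.2 to 15.7), and among isolated members it held 20.1% (18.4 to 22.0). Soft-masked repeat sequence lay under 23.1% of members, 21.7% of shared summits, 14.2% of replicate 1 only and 14.7% of replicate 3 only summits.

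At promoters the members sat upstream of the start site. Of 1240 members within 500 bp of the start of a protein-coding gene, 84.2% were upstream (82.1 to 86.1), against 68.1% of shared summits (65.8 to 70.4), 45.2% of replicate 1 only (41.1 to 49.3) and 41.3% of replicate 3 only summits (37.5 to 45.1). Their median position was -110 bp, against -75.5 bp for shared summits, 17 bp for replicate 1 only and 31 bp for replicate 3 only summits. Promoter members were paired with the nearest strong replicate 1 summit within 500 bp of them, whether or not that neighbour lay at the promoter. The member was the more upstream in 235 of 388 pairs, with medians of -95.5 bp for members and 1 bp for the neighbours, and against replicate 3 in 231 of 398 pairs. The shift and the low G+C content go together in these sets, and the part of one in the other was not tested.

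**Figure D4:**
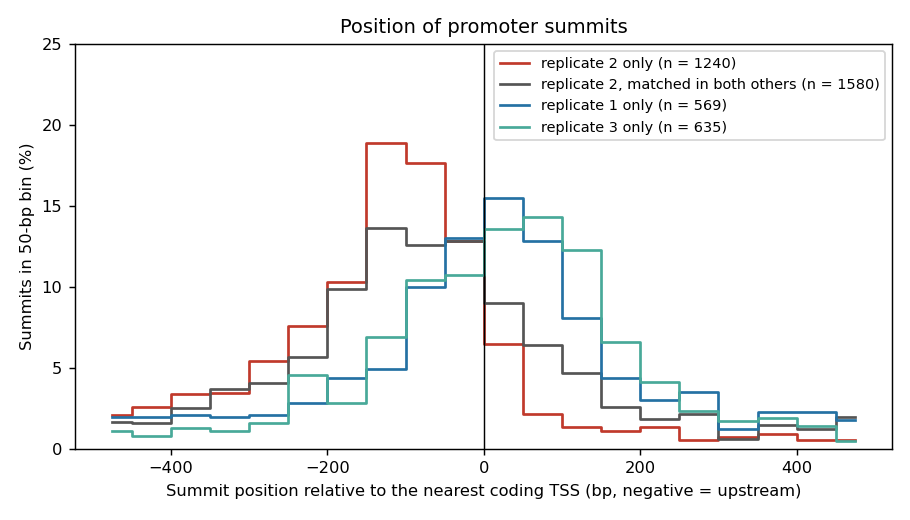
Share of promoter summits in 50-bp bins (vertical axis, %) by position relative to the nearest start site of a protein-coding gene (horizontal axis, bp, negative is upstream). The members peak left of the start site with a median of -110 bp, shared summits lie between, and the sets of replicates 1 and 3 centre on the start site or just past it.

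Short sequence words set the members apart from their own flanks. For each of 20 words, either strand was searched in the 50 bp on each side of a summit and in an equal window centred 400 bp to the left, and presence was compared by a two-sided exact McNemar test over summits with Benjamini-Hochberg adjustment. At members 12 of the 20 words (60%) differed at an adjusted p under 0.05, 8 higher and 4 lower at the summit. At shared summits 11 differed, 10 of them higher. Each word higher at members was also higher at shared summits, except the run of A, which made no call there.

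Among the words more frequent at the summit of members, TATCGATA, the site of the replication-related factor DREF, had the highest ratio. It occurred at 2.16% of summits and 0.341% of flanks, 6.33 times as often (adjusted p = 3.94e-09, exact McNemar test). At promoter members it occurred at 4.16% of summits and 0.539% of flanks, and in windows 100 bp upstream of all 19251 start sites of protein-coding genes at 2.28%. Shared summits at promoters had it at 3.35% (members minus shared 0.812 points, -0.554 to 2.26). At members away from promoters it made no call, with 0.224% of summits and 0.149% of flanks. TCGATA, which the insulator protein BEAF-32 binds and which lies within the DREF word, occurred at 7.96% and 3.49% (adjusted p = 6.12e-12, exact McNemar test). It was at 12.6% of promoter members, at 9.38% of shared summits at promoters (difference 3.25 points, 0.988 to 5.57) and at 9.07% of the windows at all start sites. At members away from promoters TCGATA made no call. TAATTA, the core recognised by many homeodomain proteins, occurred at 12.4% of summits and 4.44% of flanks (adjusted p = 5.10e-25, exact McNemar test). The word ATATATA was also more frequent at the summit, at a ratio of 2.33, and so was TAAAAATA, of the muscle factor MEF2, at a ratio of 2.83. A run of 7 A gave a ratio of 1.38, the Caudal word TTTATG 1.23 and the M1BP word GGTCACAC 2.19 (3.54 at shared summits). Neither TTTATG nor GGTCACAC made a call at members away from promoters. Most of the words more frequent at the summit are free of G and C or nearly so, and the G+C content of the summit is lower than that of the flank.

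The words less frequent at the summit of members were CACACAC (1.74% of summits and 6.52% of flanks, adjusted p = 1.14e-17), GAGAGAG of the GAGA factor (0.910% and 2.92%, adjusted p = 2.13e-07), the E-box CAGCTG (2.46% and 4.82%, adjusted p = 8.67e-06) and GGGGNCA, the core of the INSM1 site of vertebrates (1.06% and 3.34%, adjusted p = 4.36e-08), all by the exact McNemar test. Each of these words holds several G or C bases, which are fewer at the summit of members than in the flank. The part of base composition in the lower counts was not tested. At shared summits GGGGNCA was lower as well (1.26% and 2.95%), while the other 3 made no call. At replicate 2 summits matched in one other replicate, the CA repeat was also lower than in the flank (ratio 0.564). So was the GAGA word, at a ratio of 0.375, and the INSM1 word, at 0.394, while the E-box made no call. The GAGA word was higher than in the flank at summits strong in replicate 1 only and in replicate 3 only, at ratios of 1.81 and 2.35. The CA repeat was higher at summits strong in replicate 3 only, at a ratio of 1.66, and made no call at those strong in replicate 1 only (ratio 1.26).

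The Scalloped words ACATTCC and GCATTCC made no call at members, with 1.74% of summits and 1.86% of flanks (adjusted p = 0.834, exact McNemar test), and they were at 1.80% of the windows at all start sites. At shared summits they occurred at 6.03% of summits and 2.31% of flanks (adjusted p = 5.98e-13, exact McNemar test), at replicate 1 only summits at 4.63% and 1.46%, and at replicate 3 only summits at 3.92% and 2.23%. At replicate 2 summits matched in one other replicate they made no call either, with 2.05% of summits and 1.80% of flanks (adjusted p = 0.979, exact McNemar test, n = 1168). Members had the words less often than shared summits by 4.28 points (1.74% and 6.03%, Newcombe 95% interval of members minus shared -5.26 to -3.33). In bands of similar G+C content from 20 to 50%, this difference was in the windows richer in G and C. Summits under 20% or at 50% and above fell in no band. The bands match composition only roughly, with means of 43.5% in members and 44.5% in shared summits at 40 to 50%. At 40 to 50% G+C the words were at 3.26% of members and 8.97% of shared summits (difference -5.71 points, -8.03 to -2.97), and at 35 to 40% at 1.85% and 4.02% (-2.17, -4.23 to -0.230). At 30 to 35% they were at 1.28% and 1.55%, and at 20 to 30% at 1.29% and 1.47%, where the intervals included 0.

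Differences in some other words were set against the same bands. TAATTA was at 12.4% of members and 8.31% of all shared summits (difference 4.06 points, 2.49 to 5.65), yet within each of the 4 G+C bands the interval of the difference included 0, as with 19.4% of members and 18.1% of shared summits at 20 to 30% G+C. DREF words were at 2.16% of members and 1.85% of shared summits, a difference of 0.316 points (-0.400 to 1.07). At 30 to 35% G+C they were at 2.18% and 0.776% (difference 1.40 points, 0.0894 to 2.76), and in the other 3 bands the interval included 0. TTTATG was at 12.6% of members and about as many shared summits (difference -0.391 points, -2.10 to 1.34), and at 30 to 35% G+C at 11.9% and 17.9% (difference -5.95 points, -9.72 to -2.25). The difference was -4.19 points (-8.43 to -0.0773) at 20 to 30% G+C, -2.45 (-6.33 to 1.42) at 35 to 40% and 0.805 (-2.36 to 4.47) at 40 to 50%. GAGAGAG was at 0.910% and 3.20%, and at 40 to 50% G+C at 2.26% and 5.25% (difference -2.99 points, -4.85 to -0.68). CACACAC was at 1.74% and 5.91%, and at 40 to 50% G+C at 5.26% and 9.92% (difference -4.66 points, -7.32 to -1.53). The E-box differed by -2.21 points (-3.15 to -1.26), and by -2.33 (-4.51 to -0.271) at 35 to 40%. TCGATA differed by 1.53 points (0.212 to 2.89), and by 3.33 (0.136 to 7.05) at 40 to 50%. For each of these words the interval included 0 in the other 3 bands. GATAAG, the GATA word, differed by 1.56 points (0.443 to 2.72), and in every band the interval included 0. GGGGNCA differed by -0.199 points (-0.751 to 0.374), and in every band the interval included 0. At 40 to 50% G+C it was at 3.26% of members and 1.81% of shared summits.

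**Figure D5:**
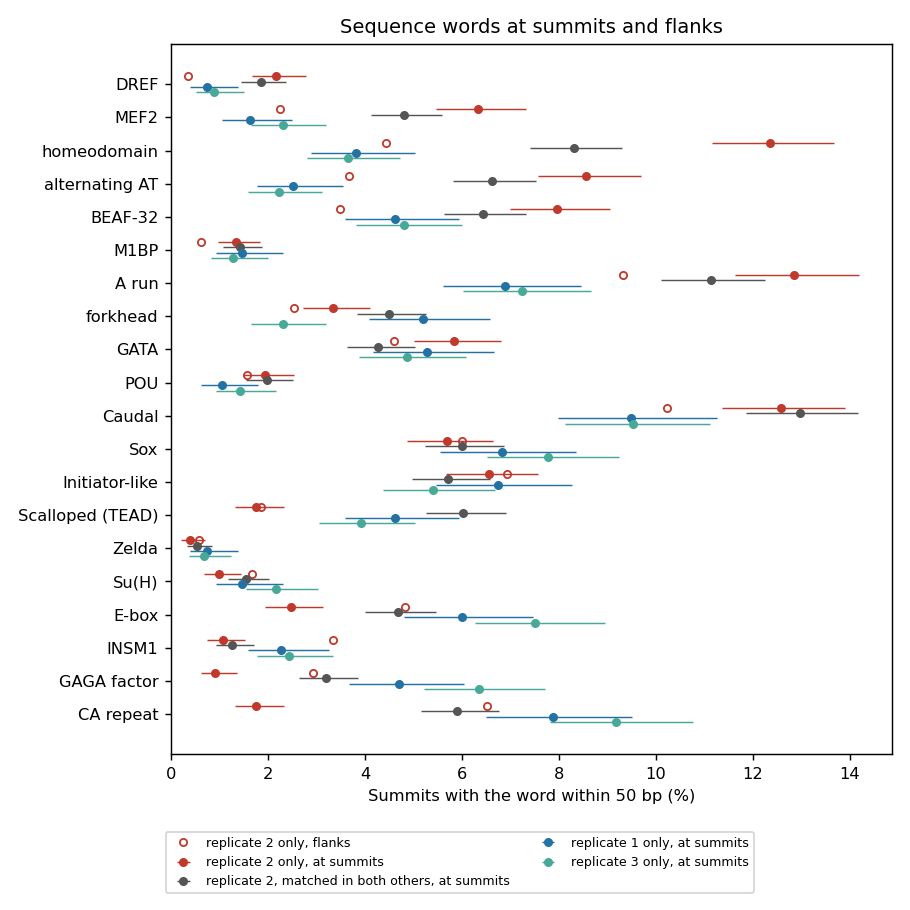
Share of summits with each of 20 words within 50 bp (horizontal axis, %) for the members and 3 comparison sets (filled points with Wilson 95% intervals) and for the flanks of members (open points), ordered by the ratio of summit to flank in members. DREF is at the top at a ratio of 6.33 and the CA repeat at the bottom at 0.267, and the Scalloped words lie at 1.74% in members and 6.03% in shared summits.

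The members were spread over many genes. By the nearest start site, 2088 of 13945 protein-coding genes (15%) had a member, 1709 of them exactly 1, and 1290 had no other strong summit of replicate 2. The genes with the most members were tara and tna, with 8 each. CG13898, CG43658 and shn had 7 each, and Ppa, SNF4Agamma and hth had 6 each. At tara, a gene of cell cycle and sleep control, 2 of the 8 were isolated, and replicate 1 had 19 strong summits there. At CG43658 all 7 were isolated, replicate 1 had 3 strong summits and replicate 3 had 5. Counts were not adjusted for the stretch of DNA each gene draws from.

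Genes that pattern the embryo and give neurons their identity often had a member, and often a summit of the comparison sets too. It was so for 5 of 8 Hox genes, 11 of 18 temporal factors of neuroblasts, 11 of 20 segment and column patterning genes and 12 of 27 neuron identity factors, where 15% of all genes had one. In the same lists, 4, 12, 10 and 13 genes had a shared summit. A replicate 1 only summit was at 2, 9, 7 and 7 of them, against 7.21% of all genes. A replicate 3 only summit was at 6, 11, 9 and 14, against 8.17% of all genes. Among temporal factors the strongest were nearest to mamo (rank 956, matched in neither other replicate) and chinmo (ranks 1301, 8422 and 8910 in replicates 2, 1 and 3). In the patterning list the T-box gene mid led (rank 2174, matched in neither other replicate), and in the Hox list abd-A (ranks 3188, 13954 and 11037). In the neuron identity list eg, a nuclear receptor gene, led (rank 3047, matched in neither other replicate), before the homeobox gene ems (ranks 3314, 10039 and 14022). Strong summits of replicates 1 and 3 lay 238 and 209 bp from the chinmo member, 102 and 191 bp from that of mid, and 120 bp from that of abd-A. Of 17 neuroblast genes 5 had a member, among them SoxN and brat, and 10 had a shared summit. Of 36 axon guidance genes 11 had a member, unc-5 (a Netrin receptor, rank 911) first, and 21 had a shared summit. The unc-5 member lay 113 and 155 bp from strong summits of replicates 1 and 3.

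In the Hippo pathway 7 of 14 genes had a member and 9 a shared summit. The strongest was in an intron of Diap1, an inhibitor of cell death (ranks 3691, 8683 and 8328 in replicates 2, 1 and 3), and next in ex (ranks 4668, 19164 and 17144). In the Notch pathway 9 of 26 had a member, led by neur, a ubiquitin ligase of Notch ligands, at rank 1022. Strong summits of replicates 1 and 3 lay 258 and 303 bp from the neur member. Muscle genes had a member in 10 of 25 cases, with sls first and Act87E (an actin of muscle, rank 1187) next. Gut and fat body genes had one in 5 of 13, trachea and epidermis genes in 7 of 16, hormone and growth genes in 8 of 18, cell cycle genes in 5 of 25, blood and heart genes in 3 of 12, glial genes in 2 of 13, germ cell genes in 2 of 11, snRNP and splicing genes in 2 of 9 and genes of mature neurons in 4 of 28. A shared summit was at 12 Notch, 10 muscle, 5 gut and fat body, 8 trachea and epidermis and 11 hormone and growth genes. The glial, germ cell, cell cycle and mature neuron lists, at 15.4%, 18.2%, 20% and 14.3%, lay close to the 15% of all genes with a member.

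Over all genes, 15% had a member, 16.5% a shared summit, 7.21% a replicate 1 only and 8.17% a replicate 3 only summit. Of 92 genes of the cytosolic ribosome 21 (22.8%) had a member and 43 a shared summit, with RpL26 (rank 1371) and RpS14a (rank 1739) first. Of 73 genes of the mitochondrial ribosome 12 (16.4%) had a member and 6 a shared summit, 1 had a replicate 1 only and 0 a replicate 3 only summit. The strongest was mRpL34, at rank 798 with 33.0% G+C, and strong summits of replicates 1 and 3 lay 180 and 216 bp from it. Of 48 proteasome genes 7 (14.6%) had a member and 4 a shared summit, and none had a summit of the other sets. The mitochondrial ribosome and the proteasome were thus near the share of all genes with a member. Chemoreceptor genes had a member in 5 of 179 cases and cuticle genes in 5 of 121, both under the 15% of all genes. The comparison sets were low there as well. A shared summit was at 4 chemoreceptor and 3 cuticle genes, a replicate 1 only summit at 4 and 0, and a replicate 3 only summit at 5 and 2.

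At nerfin-1 itself there was 1 member, 312 bp upstream of the start site at 908800 of arm 3L. It ranked 1602 in replicate 2 and was in neither other list, but strong summits of replicates 1 and 3 lay 185 and 190 bp away, and its window held 49.5% G+C. The member nearest to mat, at 905236 of the same arm and rank 216, lay 3564 bp from it. The flies carry a nerfin-1 transgene, and its part in the signal there was not tested. The growth regulator Myc had 3 members, the strongest at rank 1813 in replicate 2 and 15072 in replicate 3 and absent from the list of replicate 1, among 7 strong replicate 2 summits. The neuroblast factor dpn and the receptor gene N had no member and no strong summit of replicate 2.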

How the data were processed

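ChIP-seq peaks from 3 biological replicates of whole embryos were analysed on the dm6 build, from the separate lists that the authors deposited for single replicates, for pooled replicates and after IDR. The file headers name a control for each list, not used here, and the sources used here give no aligner or peak caller. Peak signal (column 7) is as deposited by the authors, its normalization is not stated, and it served only to order peaks within a list. Depth is unknown, so intervals cover counting error over summits only.

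Sequence came from RefSeq release 6, with coordinates as in dm6, and genes and start sites from Ensembl release 115 (BDGP6.54), without pseudogenes and transposable elements, on 6 arms. Location was called in the order promoter (within 500 bp), coding exon, other exon, intron, intergenic. All 330 listed gene symbols matched, 11 by an older symbol. Python 3.11.15, numpy 2.4.6, pandas 2.3.3, scipy 1.17.1 and matplotlib 3.10.9 were used. The word test was checked on simulated data in which summits and flanks had the same base composition. That check cannot show how many words the lower G+C content of real summits would call by itself. Members, gene lists and words were chosen with earlier results of these data known. Genes were named out of those that a rule gave, and not all of them are printed. The rule gave the 20 strongest members, the 8 genes with most members, the 2 strongest of each list, nerfin-1, dpn, Myc and N, and sites at the limits. Members far from any other summit, and windows printed because they hold no exon, were picked after their values were seen.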

Additional observations from a re-analysis of the deposited data

How the results depend on the processing

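Matching against all rows of the other replicates left 957 members and 7 of 20 words called (5 of them higher), and taking 3528 rows per replicate left 1330 members, because fewer summits can then qualify. The other settings of distance, overlap, number of rows or replicates kept the number of members within 1.5 times of 2637. Without one of the other replicates there were 3080 to 3362 members, with a mean G+C content of 34.1 to 34.3%, 49.6 to 50.4% of them at promoters, 13 to 14 words called and 2382 to 2534 genes with a member. Without replicate 2 there are no members. The mean G+C content was 34.5, 33.2 and 33.1% with matches within 50, 200 and 500 bp, 33.0% with matches by interval overlap, 32.2% with 3528 rows, 34.8% with 10000 rows, and 32.4 and 36.8% in windows of 100 and 400 bp. The promoter share was 51.3, 46.6 and 43.0% with matches within 50, 200 and 500 bp, 43.8% by interval overlap, 54.3% with 3528 rows, 44.8% with 10000 rows, 58.8% against all rows, 39.0 and 58.9% for promoter distances of 250 and 1000 bp, and 47.02% with start sites of protein-coding genes alone. In settings chosen after seeing the data, isolated members alone had 33.1% G+C and 43.0% at promoters, and members outside soft-masked sequence 34.7% G+C. The words called numbered 9 to 14 in all settings except all rows, with 9 at members away from promoters. The cause of these changes was not tested. No paired analysis was possible because the 3 replicates form 1 group. The deposited lists hold no counts, so no limit from depth can be set, and a summit outside a list of 30000 rows may still have been enriched.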
